A study of Mus musculus with 10 samples.

Results

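The uteri of 5 HSD17B1TG female mice were described on their own, without a contrast to any other group, as they stood at the age of 4 months. The series holds 10 uterus samples, of which these 5 were used, and the 5 wild-type mice were not analysed here. All 5 samples carry the label transgenic, and each library is labelled uterus, with no statement of which part of the organ was taken. HSD17B1TG mice are of the FVB/N strain and carry human *HSD17B1* cDNA behind a CMV-enhanced chicken beta-actin promoter, which drives the transgene in all tissues, and the line is kept heterozygous. According to the study the females do not cycle and stay under constant estrogen stimulation, so no cycle stage separates the mice by label. Mice are called TG1 to TG5 in the order of their accessions. Genes were chosen by their measured values: the most abundant by their share of the counts, and the most variable by the variance of log2(FPKM + 1) over the 5 mice. Levels and spreads of those genes are therefore descriptions, and no groups were tested against each other.

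HSD17B1 reduces estrone to the more potent estradiol. In the uterus estradiol acts through the receptor ESR1. It makes the luminal and glandular epithelium divide and secrete, with lactoferrin and complement C3 as the classical products in rodents, and it induces the progesterone receptor in stroma and muscle. The uterine wall is built of this epithelium, of the stroma below it and of the smooth muscle of the myometrium, so that RNA of the organ is a mixture of all 3. In such bulk samples fewer cells of a type and less RNA per cell cannot be told apart.

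Total counts on genes were 16544864 to 19451715 per mouse, protein-coding genes took 97.4% to 97.7% of them, and 20507 to 23747 genes had at least 1 count. A count of 3, the limit that a count of 0 allows, corresponded to 0.154 to 0.181 CPM. No litter, batch or date stands in the labels. As a check for a library deposited more than once, each pair was compared with counting error: the mean chi-square per gene ran from 67.4 (TG2 against TG3) to 292 (TG1 against TG5). The tissue label was checked with genes that mark the uterus. *Esr1*, the estrogen receptor, had 36.9 FPKM in TG1, 35.3 in TG2, 30.5 in TG3, 27.4 in TG4 and 39.2 in TG5, and *Hoxa10* and *Hoxa11*, the homeobox genes of the uterine part of the reproductive tract, had 21.7 to 48.3 and 12.3 to 27.4 FPKM. *Acta2* of smooth muscle and *Krt8* of epithelium were present in every mouse. Mouse *Hsd17b1* had 0.754 to 1.32 FPKM from 17 to 33 counts, and the human transgene is not a gene of the mouse annotation and was not measured here.

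The most abundant transcripts were those of mitochondria and of genes known for epithelial products, followed by genes that serve all cells and genes active in smooth muscle. *mt-Co1* had the largest share in TG1, TG4 and TG5, *C3* in TG2 and *Ltf* in TG3. The 10 highest genes of each library together took 8.42% of its counts in TG1, 10.9% in TG2, 6.97% in TG3, 9.48% in TG4 and 12.5% in TG5. Counts were most evenly spread in TG3, where 1160 genes were needed to reach 50% of all counts, and most concentrated in TG5, where 755 were enough. A share of counts is not corrected for gene length, so that long transcripts weigh more in it.

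**Figure D1:**
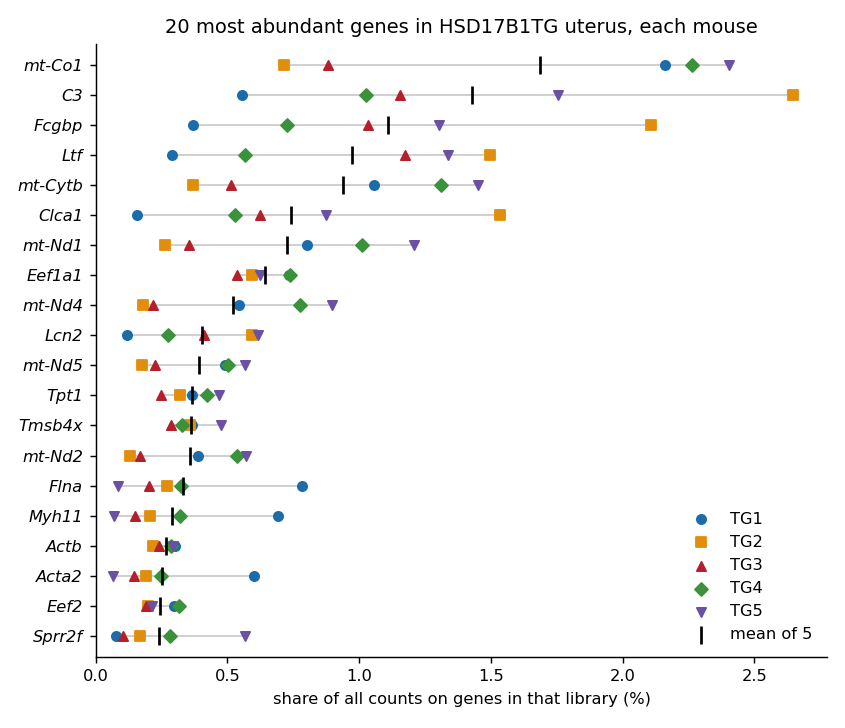
Share of all counts on genes (%, x axis) of the 20 genes with the highest mean share, with 1 symbol per HSD17B1TG mouse and a black bar at the mean of the 5. Mitochondrial genes were lowest in TG2 and TG3, *C3*, *Fcgbp*, *Ltf* and *Clca1* were lowest in TG1, and *Flna*, *Myh11* and *Acta2* were far higher in TG1 than in TG5.

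Of the 20 genes with the highest mean share, 6 are encoded by the mitochondrial genome. *mt-Co1*, the catalytic subunit of cytochrome oxidase, led with 1.68% ± 0.816 of the counts (SD, n = 5), though without TG1 *C3* led. Its share was 2.16% in TG1, 0.716% in TG2, 0.881% in TG3, 2.26% in TG4 and 2.41% in TG5, where the exact 95% binomial interval was 0.713% to 0.72% for TG2 and 2.398% to 2.412% for TG5, and covers counting error only. The mice thus lay in 2 separate sets, TG2 and TG3 under 1% and the other 3 over 2%. *mt-Cytb* of complex III took 0.94% ± 0.48 and *mt-Nd1* of complex I took 0.728% ± 0.41, both lowest in TG2 and highest in TG5. All mitochondrial genes together held 5.74%, 1.94%, 2.49%, 6.87% and 7.57% of the counts in TG1 to TG5. Per length the 13 mitochondrially encoded protein genes summed to 47706, 16355, 19918, 55980.4 and 71664 FPKM in TG1 to TG5. Of the 13, 10 were lowest in TG2, as were 9.11% of all measured genes, and 10 were highest in TG5, as were 28.8%. *mt-Nd3* and *mt-Nd4l* had the largest spread of them, with SDs of 1.34 and 1.23, and mean levels far under that of *mt-Co1*. Mitochondrial genes share sequence with copies in the nuclear genome, and *mt-Nd4l* overlaps *mt-Nd4*, so that single values rest on how such reads were counted.

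Genes known for epithelial products, most of them secreted, formed the next group, and the cells that supplied their transcripts were not measured. *C3* (ENSMUSG00000024164, chromosome 17, 57203970 to 57228136, GRCm38), the central complement component, took 1.43% ± 0.805 of the counts (SD, n = 5) with 1129.6 FPKM in TG1, 5446 in TG2, 2243 in TG3, 2044 in TG4 and 3999 in TG5. *Fcgbp*, a mucin-like protein of mucus, had 366, 2123, 983, 711 and 1452 FPKM in TG1 to TG5. *Clca1*, a secreted protein of goblet cell mucus, had 429 FPKM in TG1, 4299 in TG2, 1643 in TG3, 1434 in TG4 and 2713 in TG5. All 3 were lowest in TG1 and highest in TG2, by 4.82-fold and 5.81-fold for *C3* and *Fcgbp*. *Ltf*, the iron-binding lactoferrin, had 879.8, 4583, 3396, 1686 and 4541 FPKM in TG1 to TG5. *Lcn2*, which binds bacterial siderophores, had 476 FPKM in TG1, 2385 in TG2, 1566 in TG3, 1067 in TG4 and 2745 in TG5. For these 2 genes TG2 and TG5 lay close together at the top and TG1 again lay lowest. *Sprr2f*, a small proline-rich protein that estrogen induces in the uterus, followed another order, with 1345, 2918, 1693, 4736 and 10884 FPKM in TG1 to TG5. It was lowest in TG1 and 8.09-fold higher in TG5.

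Genes active in smooth muscle among the 20 were *Flna*, which crosslinks actin, *Myh11*, the myosin heavy chain of smooth muscle, and *Acta2*, its actin. The cells that supplied these transcripts were not measured. *Flna* had 867 FPKM in TG1, 303 in TG2, 217 in TG3, 352 in TG4 and 105 in TG5. *Myh11* had 948, 288, 198, 434 and 108 FPKM in TG1 to TG5. *Acta2* had 3526 FPKM in TG1, 1132 in TG2, 816 in TG3, 1429 in TG4 and 432 in TG5. All 3 were highest in TG1 and lowest in TG5, by 8.30-fold, 8.74-fold and 8.17-fold. The remaining 5 of the 20 genes serve all cells, and they had the smallest SDs of the 20. *Eef1a1* and *Eef2* carry out elongation on the ribosome and had SDs of log2(FPKM + 1) of 0.22 and 0.34. *Actb* had 0.25, *Tmsb4x*, which binds actin monomers, had 0.35, and *Tpt1* had 0.42. Corrected for length, the order changed: *Prap1*, a secreted protein of uterine epithelium, entered the first 10 with 1397, 3793, 908, 4788 and 8736 FPKM in TG1 to TG5, and *Sprr2f* moved to rank 4. Short transcripts such as these are underweighted by a share of counts.

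For most genes the spread between the 5 mice was above counting error but under an SD of 1. Among 12220 protein-coding genes with a mean over 1 FPKM, the median SD of log2(FPKM + 1) was 0.298, with 10% of the genes under 0.127 and 10% over 0.753, where an SD of 1 corresponds to a factor of 2. Counting error alone would give a median SD of 0.0502, and 11418 of the 12220 genes had an SD more than 2 times their own counting error. An SD over 1 was found for 410 genes (3.36%), for 933 (7.64%) with a pseudocount of 0.1 and for 997 (8.16%) on log2 CPM after TMM. The common biological coefficient of variation estimated by edgeR from the raw counts of 14742 genes was 0.391. An SD from 5 mice is itself imprecise: its 95% interval for normally distributed values reaches from 0.599 to 2.87 times the estimate.

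The share of genes with an SD over 1 was 3.14% between 1 and 3 FPKM, 2.82% between 3 and 10, 2.86% between 10 and 30, 4.69% between 30 and 100 and 10.9% (43 of 394) over 100 FPKM. The pseudocount of 1 holds down the spread of low genes: with 0.1 the shares were 15.4%, 6.58%, 3.91%, 5.53% and 10.9% in the same order, so that the lowest class had the largest. The highest class holds the secretory, muscle and mitochondrial genes described above, and 10 of the 20 most abundant genes had an SD over 1.

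**Figure D2:**
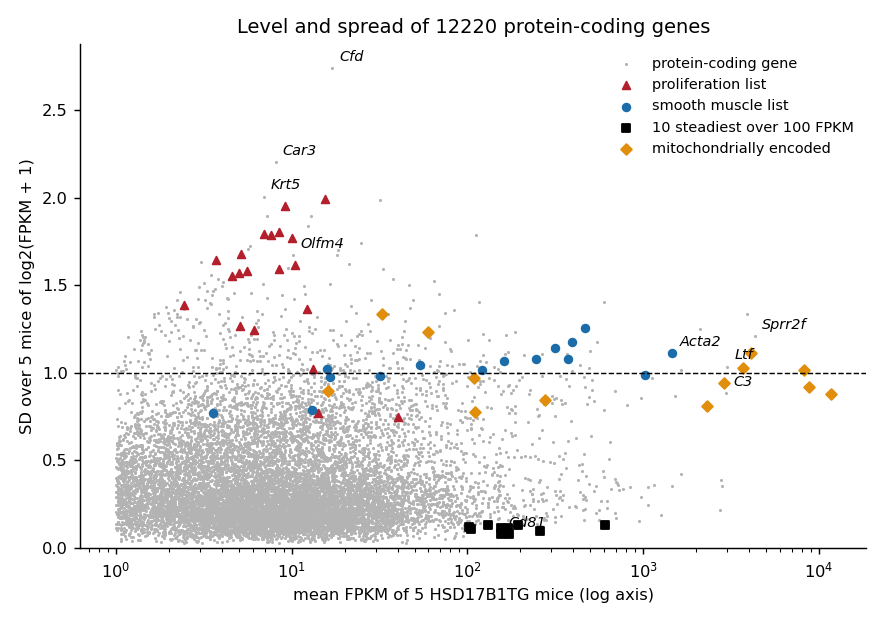
Mean FPKM of the 5 HSD17B1TG mice (x, log axis) against the SD of log2(FPKM + 1) over the 5 mice (y) for 12220 protein-coding genes, with the dashed line at an SD of 1. Proliferation genes (triangles) lie high at a modest level, smooth muscle genes (circles) and mitochondrially encoded genes (diamonds) lie around the line at high levels, and the 10 steadiest genes over 100 FPKM (squares) lie near 0.1.

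The 25 most variable protein-coding genes were in their majority genes of cell division, and these were high in a single mouse. Their place in the set depended on the scale: of the 14 genes of cell division, 3 stayed among the first 25 with a pseudocount of 0.1, where such genes were no longer the majority. On log2 CPM after TMM 2 of the 14 stayed and other genes of cell division entered, and 12 stayed with the variance stabilizing transformation of DESeq2. The 25 were, in order of falling variance, *Cfd*, *Car3*, *Krt5*, *Cdc20*, *Inmt*, *Top2a*, *Pbk*, *Uhrf1*, *Ube2c*, *Plk1*, *Mki67*, *Ctla2a*, *Rrm2*, *Ccnb2*, *Sprr2d*, *Tpx2*, *Pclaf*, *Lypd8*, *Aurkb*, *Chil1*, *Olfm4*, *Ccnb1*, *Adipoq*, *Dmbt1* and *Mcm5*. TG3 was the highest mouse for 17 of the 25, TG4 for 4, TG2 and TG5 for 2 each and TG1 for 0. TG1 was the lowest for 17. Over all 12220 genes TG1 was the highest mouse for 26.9% and the lowest for 32.0%, TG3 for 23.6% and 20.7%, and TG5 for 28.8% and 22.2%, so that extremes were common in these 3 mice. TG2 was the highest for 10.1% and TG4 for 10.6%. The variance fell smoothly across the limit of the set: *Adipoq* at rank 23 had 2.66, *Dmbt1* 2.63 and *Mcm5* at rank 25 had 2.62, and outside it *Slfn9* had 2.55, *Mcm6* 2.53 and *Galnt15* 2.53. The median SD of the 25 was 1.78 and their median counting SD was 0.0729, which describes the genes that the choice by variance gave.

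**Figure D3:**
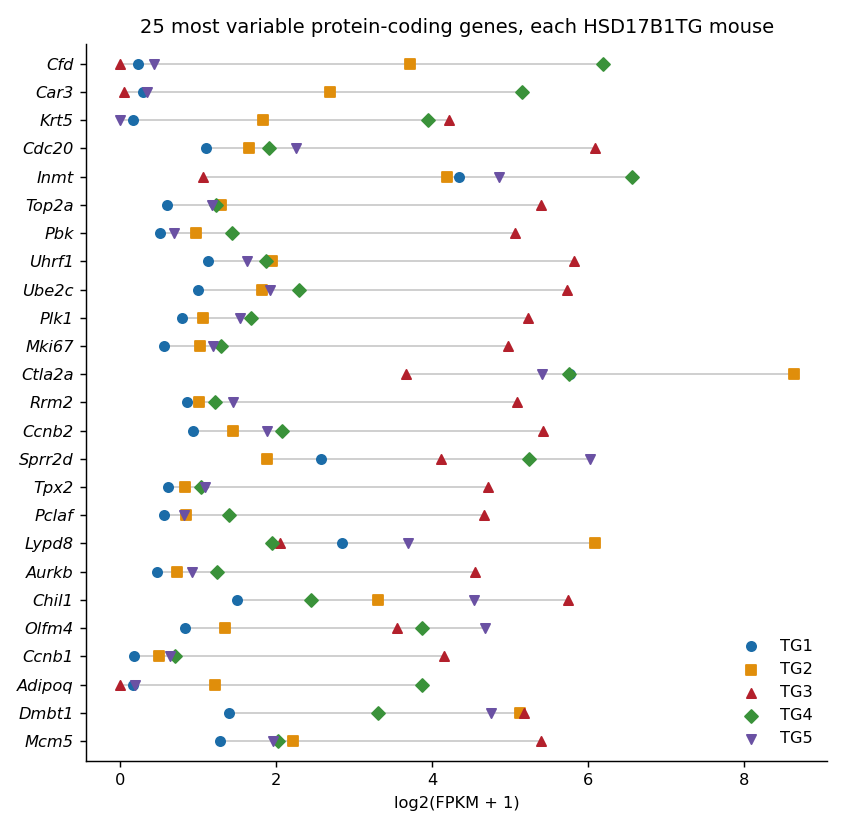
Level in log2(FPKM + 1) (x axis) of the 25 protein-coding genes with the largest variance over the 5 HSD17B1TG mice, 1 symbol per mouse. For 14 genes of cell division TG3 stands alone on the right, while *Cfd*, *Car3*, *Inmt* and *Adipoq* are highest in TG4, *Ctla2a* and *Lypd8* in TG2, and *Sprr2d* and *Olfm4* in TG5.

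A mouse was said to stand apart for a gene where the gap between it and the next mouse was more than 0.71 of the whole range of the 5 on the log2(FPKM + 1) scale. TG3 stood apart upwards for 14 of the 25 genes, a description of the same values that chose them. Over all 12220 genes some mouse stood apart, upwards or downwards, for 664 genes (5.43%), and TG3 upwards for 297. Of the 410 genes with an SD over 1, TG3 stood apart upwards for 114, TG1 for 3, TG2 and TG4 for 1 each and TG5 for 0. *Muc4*, a membrane mucin of epithelium, was the only gene of the 410 with a mouse apart downwards. It had 8.8 FPKM in TG1 and 37.4 to 61.6 in the other 4.

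Dividing cells replicate their DNA in S phase with the MCM helicase, the clamp PCNA and nucleotides made by ribonucleotide reductase. They then pass through mitosis under cyclin B and CDK1, with kinases such as PLK1 and AURKB, and leave it when CDC20 activates the anaphase-promoting complex. Genes of both phases were high in TG3. Among the mitotic genes, *Cdc20* (ENSMUSG00000006398, chromosome 4, 118432901 to 118437352, GRCm38) had 1.15 FPKM in TG1, 2.15 in TG2, 67.2 in TG3, 2.76 in TG4 and 3.78 in TG5. *Plk1*, a kinase of mitotic entry, had 0.732, 1.098, 36.5, 2.1998 and 1.899 FPKM in TG1 to TG5. *Aurkb*, a kinase of the chromosomal passenger complex, had 0.382 FPKM in TG1, 0.663 in TG2, 22.4 in TG3, 1.37 in TG4 and 0.894 in TG5. *Ccnb1*, the main B-type cyclin, had 0.127, 0.409, 16.8, 0.632 and 0.564 FPKM in TG1 to TG5. *Ccnb2*, its relative, had 0.911 FPKM in TG1, 1.73 in TG2, 41.9 in TG3, 3.2001 in TG4 and 2.69 in TG5. In every one of these TG3 lay far above a narrow band formed by the other 4 mice, by 13.1-fold to 26.6-fold over the next mouse. *Ube2c*, the ubiquitin-conjugating partner of the anaphase-promoting complex, had 0.9904, 2.52, 51.98, 3.91 and 2.79 FPKM in TG1 to TG5. *Tpx2*, which activates Aurora A on the spindle, had 0.528 FPKM in TG1, 0.787 in TG2, 25.4 in TG3, 1.05 in TG4 and 1.13 in TG5. The mitotic kinase gene *Pbk* had 0.419, 0.963, 32.5, 1.697 and 0.6099 FPKM in TG1 to TG5. *Top2a*, the topoisomerase that untangles sister chromatids, had 0.512 FPKM in TG1, 1.45 in TG2, 41.02 in TG3, 1.34 in TG4 and 1.25 in TG5. *Mki67*, which encodes the proliferation marker Ki-67, had 0.4799, 1.03, 30.4, 1.44 and 1.28 FPKM in TG1 to TG5.

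Among the replication genes, *Rrm2*, the regulated subunit of ribonucleotide reductase, had 0.813 FPKM in TG1, 1.02 in TG2, 33.1 in TG3, 1.32 in TG4 and 1.72 in TG5. *Mcm5* of the MCM helicase had 1.44, 3.64, 41.2, 3.06 and 2.896 FPKM in TG1 to TG5. *Uhrf1*, which carries DNA methylation across replication, had 1.18 FPKM in TG1, 2.86 in TG2, 55.5 in TG3, 2.65 in TG4 and 2.08 in TG5. *Pclaf*, which binds PCNA, had 0.479, 0.8002, 24.4, 1.62 and 0.761 FPKM in TG1 to TG5. The distance between TG3 and the next mouse was 11.3-fold for *Mcm5*, 15-fold for *Pclaf*, 19.3-fold for *Rrm2* and 19.4-fold for *Uhrf1*. *Cdc20*, *Ube2c* and *Pclaf* overlap *Elovl1*, *Tnnc2* and *Trip4* on the opposite strand, and since the strand setting of the counting is not known, reads in the overlaps cannot be assigned.

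The whole proliferation list of 20 genes showed the same order. It was written with earlier results of these data known and shares genes with those above, so its counts are descriptions. Its summed level was 54.9 FPKM in TG1, 67.6 in TG2, 676 in TG3, 82.1 in TG4 and 87.9 in TG5. All 20 members were highest in TG3 (23.6% of all genes were) and 19 were lowest in TG1 (32.0%). An SD over 1 was found for 18, against 3.36% of all genes, and TG3 stood apart for 19, where any mouse did for 5.43% of all genes. The median SD of the list was 1.59, against 0.298 for all genes. *Pcna* and *Mcm7* were the exceptions with SDs of 0.75 and 0.77. *Pcna* had 24.3, 24.7, 87.6, 28.9 and 34.9 FPKM in TG1 to TG5. All 20 genes remained highest in TG3 when the libraries were scaled by total count, by TMM or by DESeq2 size factors. TG2 and TG3 were the most alike of the 10 pairs of libraries as a whole, and yet lay at 67.6 and 676 FPKM in this list.

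The promoters of these genes are shown because genes of G2 and mitosis are known to share the CCAAT box, bound by NF-Y, and the CHR element, bound by the DREAM and MuvB complexes, while S-phase genes often carry E2F sites. The 250 bases before the transcription start were read from RefSeq (GRCm38.p6) and are printed 5′ to 3′ in the direction of the gene, in lower case. Capitals mark the CCAAT box, searched by the letters of its name on both strands. They also mark the CHR, searched as TTTGAA on both strands. E2F sites were searched on both strands in a pair of forms, the first of which reads TTTCCCGC. The other form reads TTTGGCGC. The promoters of *Cdc20* (chr4:118437344-118437593, minus strand) and *Top2a* (chr11:99024190-99024439, minus strand) hold both the CCAAT box and the CHR, that of *Plk1* (chr7:122159185-122159434, plus strand) holds a CCAAT box only, and that of *Mcm6* (chr1:128359706-128359955, minus strand) holds CCAAT boxes and E2F sites.
Cdc20: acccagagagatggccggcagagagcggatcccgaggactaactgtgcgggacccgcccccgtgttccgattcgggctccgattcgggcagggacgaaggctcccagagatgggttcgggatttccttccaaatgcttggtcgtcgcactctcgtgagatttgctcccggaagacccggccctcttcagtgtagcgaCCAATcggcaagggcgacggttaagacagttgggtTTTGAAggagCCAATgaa
Top2a: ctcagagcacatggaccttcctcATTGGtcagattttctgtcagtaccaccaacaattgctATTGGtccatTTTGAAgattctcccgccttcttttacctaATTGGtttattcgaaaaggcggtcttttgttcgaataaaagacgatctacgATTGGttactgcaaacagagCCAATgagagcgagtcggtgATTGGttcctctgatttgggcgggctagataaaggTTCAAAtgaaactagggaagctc
Plk1: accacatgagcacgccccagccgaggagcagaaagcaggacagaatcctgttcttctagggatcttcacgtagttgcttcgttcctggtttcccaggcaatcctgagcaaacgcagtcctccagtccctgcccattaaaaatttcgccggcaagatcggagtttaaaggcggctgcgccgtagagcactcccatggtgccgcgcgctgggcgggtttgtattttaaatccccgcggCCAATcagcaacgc
Mcm6: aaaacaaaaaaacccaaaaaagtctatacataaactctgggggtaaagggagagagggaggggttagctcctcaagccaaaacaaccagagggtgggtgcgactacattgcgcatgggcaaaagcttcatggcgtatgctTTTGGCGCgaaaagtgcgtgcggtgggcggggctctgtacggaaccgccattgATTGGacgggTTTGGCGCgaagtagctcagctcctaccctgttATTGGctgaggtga

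Of the 20 proliferation genes 17 had a promoter in the table. The CCAAT box was found in 15 of the 17 (88.2%), the CHR in 6 (35.3%) and an E2F site in 3 (17.6%). Of the 114 genes with an SD over 1 for which TG3 stood apart upwards, 98 had a promoter, and 67.3%, 35.7% and 9.18% of these held the CCAAT box, the CHR and an E2F site. Among all 9587 measured protein-coding genes with a promoter the shares were 36.2%, 10.5% and 2.59%. CCAAT box and CHR stood together in 27.6% of the 98 promoters and in 4.06% of all. No motif lies within another, though matches can share letters at their ends, a match says only that the letters occur, and the 114 genes were chosen by the measured levels.

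Cholesterol synthesis was also highest in TG3. Cells make cholesterol through the mevalonate pathway, whose genes are induced together by SREBF2 when sterols are low. The list, which was written after values of these mice had been seen, summed to 74.3 FPKM in TG1, 154 in TG2, 278 in TG3, 62.9 in TG4 and 85.2 in TG5. All 15 members with a mean over 1 FPKM were highest in TG3 (23.6% of all genes were), and 4 (26.7%) had an SD over 1, against 3.36% of all genes. *Idi1*, an isomerase of the pathway, had 1.38, 5.18, 13.7, 0.584 and 0.477 FPKM in TG1 to TG5. In contrast to the proliferation genes, TG2 was the next mouse for all 15 and TG3 did not stand apart for any of them. Heat shock genes had a summed level of 693 FPKM in TG1, 733 in TG2, 949 in TG3, 769.9 in TG4 and 687 in TG5, and 0 of 10 members had an SD over 1 (3.36% of all genes did), with a median SD of 0.40.

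Of the other variable genes with TG3 highest, *Chil1*, a chitinase-like protein, had 1.84, 8.88, 52.5, 4.47 and 22.2 FPKM in TG1 to TG5. *Dmbt1*, a scavenger receptor secreted by epithelia, had 1.63 FPKM in TG1, 34.01 in TG2, 35.2 in TG3, 8.902 in TG4 and 26.003 in TG5. It was lowest in TG1 and next lowest in TG4, while TG2, TG3 and TG5 lay higher. Part of *Dmbt1* overlaps *Fgfr2* on the other strand. *Krt5*, the keratin of basal cells in stratified epithelium, had 0.122, 2.56, 17.6, 14.4 and 0 FPKM in TG1 to TG5. With 729 counts in TG3 and 0 in TG5 it was at least 201-fold higher in TG3. *Krt14*, its partner, and *Krt15* followed it. *Krt14* had 0.06103 FPKM in TG1, 0.8501 in TG2, 6.11 in TG3, 2.89 in TG4 and 0.146 in TG5. *Krt15* had 0.243, 2.93, 9.02, 7.83 and 1.64 FPKM in TG1 to TG5. *Krt13*, a keratin of upper layers of such epithelium, had 1.44 FPKM in TG1, 14.5 in TG2, 16.4 in TG3, 10.4 in TG4 and 4.52 in TG5 and so was also high in TG2. Squamous epithelium markers summed to 9.96, 28.96, 56.3, 45.5 and 17.3 FPKM in TG1 to TG5, and 4 of 6 members with a mean over 1 FPKM had an SD over 1, against 3.36% of all genes. The basal cell factor *Trp63* and the desmosomal cadherin *Dsg3*, which define such epithelium, did not reach a mean of 1 FPKM. The part of such epithelium in these values was not tested.

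Several fat cell genes were high in TG4, and some of them to a lesser degree in TG2. *Cfd* (ENSMUSG00000061780, chromosome 10, 79890853 to 79892655, GRCm38), the serine protease adipsin that is secreted by adipocytes and also serves the complement system, was the most variable gene of all, with 0.175 FPKM in TG1, 12.2 in TG2, 0 in TG3, 72.2 in TG4 and 0.348 in TG5. Its counts were 3, 195, 0, 1073 and 5, so that it was at least 417-fold higher in TG4 than in TG3. Its rank rested on TG4 and on the scale: without TG4, and by edgeR's tagwise dispersion, *Cfd* was not among the first 25. *Car3*, a carbonic anhydrase abundant in fat and muscle, had 0.225, 5.46, 0.0371, 34.4 and 0.269 FPKM in TG1 to TG5. *Adipoq*, the adipocyte hormone adiponectin, had 0.117 FPKM in TG1, 1.33 in TG2, 0 in TG3, 13.7 in TG4 and 0.1396 in TG5, at least 118-fold higher in TG4 than in TG3. *Cidec* of lipid droplets had 0, 1.15, 0, 7.48 and 0 FPKM in TG1 to TG5. *Retn*, the adipokine resistin, had 0 FPKM in TG1, 0.692 in TG2, 0 in TG3, 6.24 in TG4 and 0 in TG5. These genes were listed at or near 0 in TG1, TG3 and TG5. The whole list of 10 genes in the table summed to 26.5, 46.9, 12.1, 172 and 37.5 FPKM in TG1 to TG5, and 5 of 8 members with a mean over 1 FPKM had an SD over 1, against 3.36% of all genes. Of the 8, 6 were highest in TG4, as were 10.6% of all genes. *Lipe*, a lipase that other tissues also use, was highest in TG5 with 31.4 FPKM against 12.2 in TG4, and *Plin4*, a lipid droplet protein, was highest in TG1 with 10.1 FPKM against 8.34 in TG4. *Fabp4*, a fatty acid carrier, was lowest in TG2, with 5.11 FPKM in TG1, 2.96 in TG2, 3.18 in TG3, 13.2 in TG4 and 3.68 in TG5. Mesothelium markers, which belong to the outer lining of the organ, summed to 112, 69.5, 33.1, 117 and 39.4 FPKM in TG1 to TG5, nearly level in TG4 and TG1, and 4 of 6 members were highest in TG4 (10.6% of all genes were) and 2 in TG1. The part of fat tissue in these values was not tested.

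Some variable genes, chosen after their values were seen, were highest in TG4 and lowest in TG3. *Inmt*, an indolethylamine methyltransferase, had 19.3 FPKM in TG1, 17.2 in TG2, 1.096 in TG3, 93.1 in TG4 and 28.1 in TG5, a range of 85.0-fold from TG3 to TG4. *Igfbp3*, which binds insulin-like growth factors, had 24.1, 12.1, 5.82, 115 and 32.2 FPKM in TG1 to TG5. *Mmp11*, a stromal protease, had 28.8 FPKM in TG1, 15.9 in TG2, 11.4 in TG3, 142 in TG4 and 39.2 in TG5. *Galnt15*, an enzyme of mucin-type glycosylation, had 48.8, 10.01, 4.17, 77.01 and 24.4 FPKM in TG1 to TG5. TG1, TG2 and TG5 lay between the extremes for *Inmt* and *Igfbp3*. *Fbxo32* and *Rspo3* had TG1 and TG4 together at the top, with 149 and 131 FPKM and with 42.2 and 37.8 FPKM.

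Some variable genes were highest in TG2. *Ctla2a*, a cysteine protease inhibitor known from decidua and lymphocytes, had 53.5 FPKM in TG1, 396 in TG2, 11.6 in TG3, 53.2 in TG4 and 41.5 in TG5. *Lypd8*, a secreted protein of colonic epithelium that binds bacteria, had 6.18, 67.2, 3.15, 2.85 and 11.96 FPKM in TG1 to TG5. *Aoc1*, which degrades histamine, had 249.8 FPKM in TG1, 1481 in TG2, 537 in TG3, 112 in TG4 and 617 in TG5. *Hsd11b2*, which inactivates glucocorticoids, had 44.2, 123, 47.8, 7.89 and 21.6 FPKM in TG1 to TG5. TG2 was 7.41-fold above the next mouse for *Ctla2a* and 5.62-fold for *Lypd8*. *Igfbp2* had 0.9004 FPKM in TG1, 9.55 in TG2, 0.777 in TG3, 0.403 in TG4 and 0 in TG5, and TG2 stood apart. *Ctla2a* overlaps 2 predicted genes on its own strand. Markers of natural killer and cytotoxic cells were also highest in TG2, with 4.47, 18.9, 4.69, 4.45 and 7.297 FPKM in TG1 to TG5. All 4 members with a mean over 1 FPKM were highest in TG2 (10.1% of all genes were), 0 had an SD over 1 (3.36% of all genes), and *Klrd1*, a receptor of natural killer cells, had 0.754 FPKM in TG1, 3.41 in TG2, 0.332 in TG3, 0.871 in TG4 and 0.602 in TG5.

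TG5 had the highest sum of the cornified envelope list, though not of each of its genes. *Sprr2d* had 4.96, 2.701, 16.3, 36.7 and 63.8 FPKM in TG1 to TG5. It lies with *Sprr2b*, *Sprr2f* and *Sprr1a* on chromosome 3 (92316620 to 92485895, GRCm38), and these 4 measured neighbours all had an SD over 1. *Sprr2b* had 5.82 FPKM in TG1, 11.7 in TG2, 15.9 in TG3, 23.5 in TG4 and 57.5 in TG5. *Sprr1a* had 8.19, 12.6, 21.3, 57.6 and 52.7 FPKM in TG1 to TG5, highest in TG4. *Sprr2g*, annotated as a polymorphic pseudogene in the table, departed from them with 1.73 FPKM in TG1, 2.21 in TG2, 35.8 in TG3, 22.2 in TG4 and 23.8 in TG5, highest in TG3. The *Sprr2* genes are near-identical copies, and their single values are uncertain where reads fit several of them. The cornified envelope list summed to 1402, 3018, 1839, 4952 and 11241 FPKM in TG1 to TG5, of which *Sprr2f* made up 96.1%, and without it the sums were 57.4 FPKM in TG1, 100.2 in TG2, 146 in TG3, 216 in TG4 and 356 in TG5. *Olfm4*, a secreted glycoprotein of epithelial crypts, had 0.779, 1.53, 10.7, 13.6 and 24.6 FPKM in TG1 to TG5. *Spp1*, the secreted osteopontin, had 10.7 FPKM in TG1, 47.9 in TG2, 124 in TG3, 31.5 in TG4 and 129.98 in TG5. *Cxcl5*, a chemokine for neutrophils, had 0.605, 0.987, 1.88, 3.33 and 14.9 FPKM in TG1 to TG5.

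**Figure D4:**
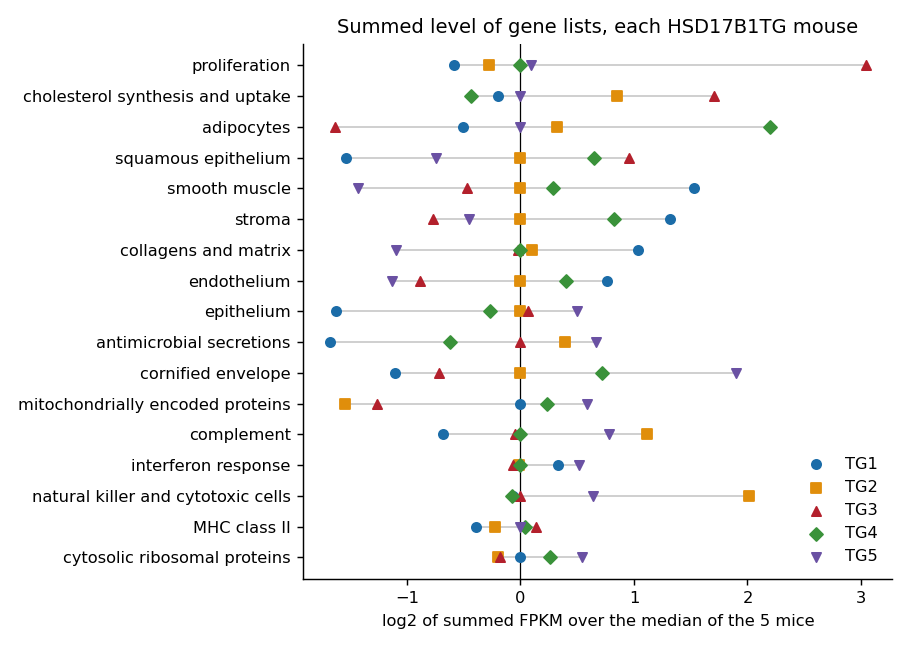
Summed FPKM of 17 gene lists in each HSD17B1TG mouse, as log2 of the ratio to the median of the 5 mice (x axis), 1 symbol per mouse. TG3 lies far to the right for proliferation, TG4 for adipocytes and TG2 for natural killer and cytotoxic cells, TG1 and TG5 form the opposite ends of smooth muscle and epithelium, and ribosomal and MHC class II genes stay close to 0.

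The lists of tissue markers set TG1 against TG5. Smooth muscle genes summed to 10978 FPKM in TG1, 3793 in TG2, 2737 in TG3, 4617 in TG4 and 1405 in TG5. All 15 were highest in TG1 (26.9% of all genes were), 14 were lowest in TG5 (22.2%), and 10 (66.7%) had an SD over 1, against 3.36% of all genes. *Myl9*, the regulatory light chain, had 2340.2, 817, 616, 996 and 362 FPKM in TG1 to TG5. *Actg2*, the actin of visceral muscle, had the largest spread of the list, with 1088 FPKM in TG1, 439 in TG2, 315 in TG3, 403 in TG4 and 95.6 in TG5. *Tagln* and *Myocd* were highest in TG1 as well. TG1 was above each other mouse for every gene of the list, and the order below it was TG4, TG2, TG3 and TG5 for the sum.

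The other mesenchymal lists were also highest in TG1. Collagens and matrix summed to 3849, 2019, 1847, 1880.5 and 882 FPKM in TG1 to TG5, with 18 of 21 members highest in TG1 (26.9% of all genes) and 17 lowest in TG5 (22.2%), and 7 (33.3%) had an SD over 1, against 3.36% of all genes. *Col1a1*, of fibrillar collagen, had 491 FPKM in TG1, 339 in TG2, 401 in TG3, 212 in TG4 and 112 in TG5. *Col6a3*, of a collagen that links cells to the matrix, had the largest spread, with 198, 89.97, 83.5, 32.8 and 16.7 FPKM in TG1 to TG5. *Mgp*, an inhibitor of calcification, departed with 277 FPKM in TG1, 93.996 in TG2, 43.03 in TG3, 371 in TG4 and 152 in TG5, highest in TG4. Stromal markers summed to 1916, 769, 451, 1362 and 561 FPKM in TG1 to TG5. Endothelial markers summed to 183 FPKM in TG1, 107 in TG2, 58.2 in TG3, 142 in TG4 and 48.9 in TG5. All 12 endothelial members were highest in TG1 (26.9% of all genes were), and 0 of 12 in either list had an SD over 1 (3.36% of all genes), with median SDs of 0.50 for stroma and 0.73 for endothelium. *Lum*, a proteoglycan of connective tissue, had 598, 173, 113, 314 and 134 FPKM in TG1 to TG5. *Dcn*, another, had 366 FPKM in TG1, 193 in TG2, 86.4 in TG3, 356 in TG4 and 131 in TG5, and TG4 lay next to TG1 for both. *Nr2f2*, a stromal transcription factor, was nearly level with 16.2, 17.5, 15.6, 17.3 and 17.8 FPKM in TG1 to TG5.

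Epithelial markers ran the other way. They summed to 1023 FPKM in TG1, 3148 in TG2, 3297 in TG3, 2621 in TG4 and 4446 in TG5. All 16 were lowest in TG1 (32.0% of all genes were), and in deposited FPKM 12 were highest in TG5 (28.8% of all genes). *Krt8*, a keratin of simple epithelia, had 139, 555, 571, 383 and 676 FPKM in TG1 to TG5. Its share of the counts was nearly level in TG3 and TG5, with 0.112% and 0.113%. *Krt19*, another keratin, had 149.9 FPKM in TG1, 618 in TG2, 619 in TG3, 488 in TG4 and 670.5 in TG5. For *Krt19* the other 4 mice lay close together and TG1 stood apart below them. *Cldn4*, a claudin of tight junctions, was the only member with an SD over 1, with 10.01, 22.3, 26.7, 86.2 and 65.8 FPKM in TG1 to TG5. Antimicrobial secretions summed to 1958 FPKM in TG1, 8238 in TG2, 6258 in TG3, 4068 in TG4 and 9919.6 in TG5. Of 11 members 7 were lowest in TG1 (32.0% of all genes were) and 5 had an SD over 1 (3.36%). *Wfdc2*, a secreted protease inhibitor, had 134, 361, 528, 545 and 907 FPKM in TG1 to TG5. *Lyz2*, which macrophages make, ran against the list with 167 FPKM in TG1, 80.3 in TG2, 77.3 in TG3, 147 in TG4 and 83.98 in TG5. *Alox15*, a lipoxygenase that made up 99.6% of the eosinophil list, had 48.6, 232, 287, 151 and 328 FPKM in TG1 to TG5, lowest in TG1 as the epithelial markers were, though by share of counts it was highest in TG3 and not in TG5, while *Siglecf*, *Epx* and *Prg2* did not reach 1 FPKM. The share of epithelium, stroma and muscle in each sample was not measured, and the part of it in the secretory and matrix genes above was not tested.

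The receptors and targets of the sex steroids did not share an order. *Esr1* was among the steadier genes, with an SD of 0.21. *Pgr*, the progesterone receptor, had 58.5 FPKM in TG1, 30.9 in TG2, 27.5 in TG3, 17.9 in TG4 and 14.3 in TG5. *Igf1*, the growth factor by which estrogen-stimulated stroma acts on the epithelium, had 56.5, 23.8, 23.1, 7.14 and 7.01 FPKM in TG1 to TG5. *Greb1*, a direct target of ESR1, had 15.7 FPKM in TG1, 13.1 in TG2, 10.2 in TG3, 5.83 in TG4 and 5.28 in TG5. These 3 genes were highest in TG1 and lowest in TG5, whereas the epithelial products *Ltf*, *C3* and *Sprr2f* were lowest in TG1, with *Sprr2f* highest in TG5 and the other two in TG2. The list of estrogen-induced uterine genes summed to 5111, 21455, 11974, 11881 and 26556 FPKM in TG1 to TG5, of which *Sprr2f* made up 28.03%. Without it the sums were 3766 FPKM in TG1, 18537 in TG2, 10281 in TG3, 7145 in TG4 and 15671 in TG5, highest in TG2. Of its 22 protein-coding members with a mean over 1 FPKM 8 (36.4%) had an SD over 1, against 3.36% of all genes and 10.9% of those over 100 FPKM. *Padi1*, which citrullinates proteins, had 127, 679, 389, 242 and 448 FPKM in TG1 to TG5. *Ramp3*, a coreceptor, was highest in TG3 with 16.8 FPKM in TG1, 65.2 in TG2, 117 in TG3, 18.8 in TG4 and 41.9 in TG5. *S100g*, the calcium-binding protein calbindin-D9k of the uterus, had 392, 36.4, 47.9, 39.1 and 67.6 FPKM in TG1 to TG5, and TG1 stood apart above the other 4. *Npr3*, the clearance receptor of natriuretic peptides, had 22.1 FPKM in TG1, 2.95 in TG2, 2.07 in TG3, 3.33 in TG4 and 1.65 in TG5, likewise with TG1 apart.

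Of the 17 genes listed as induced by progesterone in the uterus 8 had a mean over 1 FPKM, and the sum was 101, 213, 132, 66.01 and 103 FPKM in TG1 to TG5, of which *Hsd11b2* made up 39.7%. Without it the sums were 56.4 FPKM in TG1, 90.2 in TG2, 84.4 in TG3, 58.1 in TG4 and 81.8 in TG5, lowest in TG1 and no longer in TG4. *Gata2*, a transcription factor of stroma and epithelium, had 28.2 FPKM in TG1, 38.7 in TG2, 40.8 in TG3, 30.3 in TG4 and 34.2 in TG5. *Sox17*, a factor of the epithelium, had 11.95, 35.3, 32.2, 17.4 and 33.4 FPKM in TG1 to TG5. *Areg*, *Calca* and *Il13ra2* did not reach a mean of 1 FPKM. *Foxa2*, the factor of uterine glands, had 0.792 FPKM in TG1, 2.79 in TG2, 3.54 in TG3, 4.61 in TG4 and 4.88 in TG5. The gland markers summed to 36.9, 94.6, 95.6, 64.8 and 152 FPKM in TG1 to TG5, of which *Prom1* made up 52.3%.

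Interferon response genes had a median SD of 0.60, against 0.298 for all genes, with 0 of 29 members over 1 (3.36% of all genes were; 1 of the 29 is a polymorphic pseudogene and not among those genes), and 25 were highest in TG5, against 28.8% of all genes, and 21 lowest in TG1, against 32.0%. *Irf7*, the factor that amplifies the interferon response, had 14.6 FPKM in TG1, 29.9 in TG2, 34.2 in TG3, 51.3 in TG4 and 92.9 in TG5. *Oas2*, a sensor of double-stranded RNA, had 23.2, 61.5, 47.6, 46.05 and 114 FPKM in TG1 to TG5. *Bst2*, which made up 42.0% of the list, ran the other way with 646 FPKM in TG1, 287 in TG2, 276 in TG3, 328 in TG4 and 252 in TG5, so that the sum was 951, 749, 720.02, 754 and 1080.3 FPKM in TG1 to TG5, and without *Bst2* it was 306 FPKM in TG1, 462 in TG2, 444 in TG3, 426 in TG4 and 828 in TG5. Scaled by total count, 22 of the 29 were highest in TG5. Inflammatory cytokines summed to 21.7, 50.5, 40.3, 34.6 and 110.02 FPKM in TG1 to TG5. Of the 5 members with a mean over 1 FPKM 2 had an SD over 1 (3.36% of all genes did). All 5 were highest in TG5 (28.8% of all genes), among them *Csf3*, the neutrophil growth factor, with 10.8 FPKM in TG1, 29.5 in TG2, 18.5 in TG3, 7.42 in TG4 and 54.3 in TG5. *Tnf* had 0.327, 1.298, 2.37, 2.35 and 7.61 FPKM in TG1 to TG5.

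Complement genes did not share an order. *Cfi*, the protease that inactivates C3b, had 32.3 FPKM in TG1, 149.6 in TG2, 83.8 in TG3, 69.2 in TG4 and 160.3 in TG5, lowest in TG1 as *C3* was. *C4b* of the classical pathway had 53.1, 28.6, 14.5, 49.95 and 18.7 FPKM in TG1 to TG5, highest in TG1 with TG4 next to it. *Cfb*, of the alternative pathway, was high in TG2 and TG3 only, with 1.37 FPKM in TG1, 13.8 in TG2, 14.5 in TG3, 1.91 in TG4 and 2.32 in TG5. Macrophage markers summed to 484, 297, 264, 417 and 330.2 FPKM in TG1 to TG5. *C1qa*, the complement subunit that macrophages make, had 122 FPKM in TG1, 67.4 in TG2, 60.4 in TG3, 78.8 in TG4 and 66.97 in TG5. The B and plasma cell list summed to 139.99, 230.1, 198, 59.98 and 55.99 FPKM in TG1 to TG5, led by the immunoglobulin light chain gene *Igkc* with 101 FPKM in TG1, 158 in TG2, 135 in TG3, 40.1 in TG4 and 33.3 in TG5. *Igha*, the heavy chain of IgA, had 12.2, 40.3, 35.1, 3.05 and 7.92 FPKM in TG1 to TG5. T cell markers had 3 of 12 members with a mean over 1 FPKM, and neutrophil markers 3 of 16. Immediate early genes summed to 469 FPKM in TG1, 541 in TG2, 466 in TG3, 525 in TG4 and 867 in TG5, with TG5 apart from the other 4. *Ier3* led them with 109, 245, 197, 271 and 534 FPKM in TG1 to TG5, and without it the sum was 359.7 FPKM in TG1, 297 in TG2, 269 in TG3, 254 in TG4 and 333 in TG5. *Hba-a1* of red cells had 48.03, 58.9, 16.04, 21.6 and 11.9 FPKM in TG1 to TG5, so that TG1 and TG2 lay above the other 3.

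MHC class II and ribosomal protein genes were the steadiest lists, with median SDs of 0.317 and 0.306. *Cd74*, the invariant chain, had 115 FPKM in TG1, 129 in TG2, 188 in TG3, 155 in TG4 and 148 in TG5. The 81 ribosomal protein genes summed to 29914, 26154, 26347, 35755 and 43549 FPKM in TG1 to TG5, and 80 of them had a mean over 1 FPKM. In deposited FPKM 70 of the 80 were highest in TG5 (28.8% of all genes), and scaled by total count 47 were. *Rpl30* was the only one with an SD over 1. The steadiest genes over 100 FPKM were *Cd81*, *Rpl15*, *Rps3*, *Atp5d*, *Capns1*, *Lamp1*, *Atp5g2*, *Rps6*, *S100a10* and *Cnbp*, out of 394 genes. *Cd81*, a tetraspanin of the cell surface, had 167 FPKM in TG1, 155 in TG2, 149.98 in TG3, 145 in TG4 and 161 in TG5, an SD of 0.081 on the log2 scale. *Rps3* of the small ribosomal subunit had 256, 239.99, 246, 261 and 286 FPKM in TG1 to TG5. *Lamp1* of lysosomes had 158 FPKM in TG1, 149.8 in TG2, 140.4 in TG3, 157 in TG4 and 175 in TG5. For the 10 genes the highest mouse was 1.14-fold to 1.26-fold above the lowest.

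Without TG3, the set of the most variable genes turned over. Of the 25, 9 remained among the first 25 of the other 4 mice, namely *Cfd*, *Car3*, *Krt5*, *Ctla2a*, *Sprr2d*, *Lypd8*, *Olfm4*, *Adipoq* and *Dmbt1*. Those that entered included *Lgr6*, a receptor of R-spondins, with 30.8, 13.5, 9.01, 4.06 and 1.09 FPKM in TG1 to TG5. They also included *Acta1*, the actin of skeletal muscle, with 21.03 FPKM in TG1, 21.9 in TG2, 12.3 in TG3, 2.54 in TG4 and 1.799 in TG5, and *Aoc1*, *Hsd11b2*, *S100g*, *Igfbp2*, *Col6a3* and *Cxcl5*. None of the 20 proliferation genes was among them. The number of genes with an SD over 1 was 374 without TG3, and 222 of the 410 genes remained in it.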

How the data were processed

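Uterus RNA of 5 HSD17B1TG mice was sequenced by the authors as paired-end reads of 150 bp, 1 library per mouse, and mapped with HISAT2 2.0.5 (Ensembl 94, GRCm38). Per the labels all 5 are transgenic, and the 5 wild-type mice were not used. Which program counted the reads, and whether it used strand, is not given in the sources used here. The deposited table has 29268 genes, and its raw count per gene and mouse was used without change for shares and dispersions. The deposited FPKM divide the count by the gene length of the table and by a number of fragments proportional to a size factor, which lay between 0.854 (TG5) and 1.00 (TG3) of the total count. A deposited signal, the count divided by that factor, was read but not used further. Columns and tables with the authors' fold changes, p-values and enriched terms compare the genotypes and were not used.

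A share is the count of a gene over all counts on genes. Spread is the SD over the 5 mice of log2(FPKM + 1), for the 12220 protein-coding genes with a mean FPKM over 1. The counting SD is the part that Poisson error of the counts would give. The common biological coefficient of variation came from edgeR 4.0.16 (filterByExpr, TMM, estimateDisp with an intercept) in R 4.3.3; other steps used Python 3.11.15 with pandas 2.3.3 and scipy 1.17.1. In simulated counts of 5 libraries 200 genes were made variable. The other genes had a biological coefficient of variation of 0.2, under the 0.391 of these mice. An SD of log2(CPM + 1) over 1 was found for 154 of the 200 and for 0 of the other genes. At so low a coefficient the other genes could hardly reach it, so the 0 gives no rate of false calls for these mice. Of the 200, 176 were among the 200 genes of largest dispersion.

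The members and all gene lists were chosen with earlier results of these data known. Lists were written by hand (34), and those for cholesterol, for mitochondrially encoded and for ribosomal proteins were added after values were seen; some genes of the cholesterol list are not reported here and do not enter its values. Genes named are the 20 most abundant, the 25 most variable, the 10 steadiest over 100 FPKM, the 2 highest and 2 most variable members of each list and genes that mark the uterus; others were named after their values were seen. Promoters were matched by symbol, chromosome and strand to RefSeq (GRCm38.p6), taking the start nearest to the 5′ end in the table; 9587 of 12220 genes matched. Overlaps came from GENCODE M21, where coordinates were identical for 28478 of the 29268 genes. Alternatives were other pseudocounts, filters, scalings and transformations (DESeq2 1.42.0) and each mouse left out.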

Additional observations from a re-analysis of the deposited data

Results flagged for a closer look

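Among the 5 mice, 1 mouse stood far from the other 4 in 30 of the 197 values searched, which were the named genes on the log2(FPKM + 1) scale and the summed levels of the lists. A mouse was taken as far where its gap to the nearest other mouse, divided by the whole range, was over 0.71, a limit that chance passes in about 1 in 20 groups. The number in parentheses after each gene is that gap over range, and the named genes were themselves chosen in large part for their spread. TG3 was far above the others for *Cdc20* (0.769), *Top2a* (0.855), *Pbk* (0.797), *Uhrf1* (0.825), *Ube2c* (0.725), *Plk1* (0.8004), *Mki67* (0.836), *Rrm2* (0.862), *Ccnb2* (0.747), *Tpx2* (0.884), *Pclaf* (0.799), *Aurkb* (0.810), *Ccnb1* (0.866), *Mcm5* (0.774), *Mcm6* (0.814) and *Pcna* (0.721), which serve the cell cycle or DNA replication. The summed proliferation list, in which TG3 was the high mouse, had 0.814. TG1 was far above the others for *Bst2* (0.719), *Npr3* (0.773) and *S100g* (0.742), and far below them for *Krt19* (0.788) and *Muc4* (0.737). TG2 was far above for *Igfbp2* (0.728) and *Klrd1* (0.716). TG4 was far above for *Retn* (0.735). TG5 was far above for the summed immediate early genes, with 0.757. Under 1 FPKM in all 5 mice, and so resting on few counts, were *Areg* (0.812), *Epx* (0.848), *Il13ra2* (0.862) and *Prg2* (1).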

How the results depend on the processing

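No paired analysis was possible because only 1 group was described and its labels carry no pairing. The ranking of variable genes depended on the transformation. Of the 25 genes, 8 stayed among the first 25 with a pseudocount of 0.1, 6 with log2 CPM after TMM, 16 with the variance stabilizing transformation of DESeq2, 10 by edgeR's tagwise dispersion, and 9 to 22 with 1 mouse left out, where 9 was the value without TG3. The number of genes with an SD over 1 was 933 with a pseudocount of 0.1 and 997 with log2 CPM after TMM against 410, and 407 of the 410 were among the 997. It was 302 to 646 with 1 mouse left out, and 646 without TG2. It stayed within 1.5 times with a mean FPKM over 5, with no filter on level, with other size factors and, added after seeing the data, with at least 100 counts. The 10 most abundant genes took a mean of 9.17% of the counts, and 8.4% to 9.78% when they were chosen anew with 1 mouse left out. The 10 with the highest share of summed FPKM, of which 6 were the same genes, took 14.2% of it. The coefficient of variation was 0.487 without the filter on low counts and 0.355 to 0.422 with 1 mouse left out. All 37 lists had a median SD over that of all genes, and 35 or 36 did under each alternative with fewer mice, another pseudocount or log2 CPM. Since the lists were chosen with earlier results of these data known, these counts are descriptions. Scaling by total count shifted TG5 by -0.15 on the log2 scale against deposited FPKM. The highest mouse of a list was the same under 4 scalings for 35 of 37 lists and the lowest for 34; the eosinophil and serine protease lists changed the highest mouse, from TG5 to TG3, by total count. Causes of these changes were not tested. Depth limits the lowest genes: 3 counts, the limit that a count of 0 allows, were 0.154 to 0.181 CPM.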

Other observations

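Further gene groups that the account above does not describe had orders of their own among the 5 mice. Enzymes of detoxification and redox balance summed to 2545, 3964, 2787, 2888 and 4507 FPKM in TG1 to TG5, and 3 of 16 members (18.8%) had an SD over 1, between 1.02 and 1.07, against 3.36% of all genes. *Cbr2*, a carbonyl reductase, led them and was lowest in TG1, with 502 FPKM in TG1, 2028 in TG2, 1458 in TG3, 1258 in TG4 and 2319 in TG5. *Adh1*, an alcohol dehydrogenase that also acts on retinol, ran the other way with 347, 137, 104, 70.5 and 53.8 FPKM in TG1 to TG5. *Aldh1a2*, which makes retinoic acid, was highest in TG3 with 27.1 FPKM in TG1, 93.9 in TG2, 136 in TG3, 24.7 in TG4 and 66.8 in TG5, and *Gpx3*, a secreted glutathione peroxidase, was lowest there with 262, 186, 47.8, 179.6 and 72.8 FPKM in TG1 to TG5. Membrane mucins summed to 54.7 FPKM in TG1, 216 in TG2, 263 in TG3, 181 in TG4 and 331 in TG5, and all 4 with a mean over 1 FPKM were lowest in TG1 (32.0% of all genes were). Serine proteases and kallikreins summed to 149, 231, 248, 207 and 271 FPKM in TG1 to TG5. *Tmprss4*, a membrane serine protease of epithelium, had the highest mean of them, with 12.5 FPKM in TG1, 67.98 in TG2, 74.3 in TG3, 36.3 in TG4 and 74.3 in TG5. *Prss22*, a tryptase, had the largest spread of them, with 1.82, 7.21, 26.4, 21.7 and 12.9 FPKM in TG1 to TG5, highest in TG3 and TG4.

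Markers of neighbouring organs were low. Ovary markers summed to 20.7 FPKM in TG1, 11.95 in TG2, 8.12 in TG3, 18.6 in TG4 and 11.001 in TG5, of which 2 of 7 had a mean over 1 FPKM. *Star*, the cholesterol transporter of steroid-making cells, had 8.65, 5.66, 3.71, 10.4 and 6.95 FPKM in TG1 to TG5. Urothelium markers summed to 6.39 FPKM in TG1, 7.07 in TG2, 3.85 in TG3, 12.6 in TG4 and 7.59 in TG5. The ciliated oviduct list summed to 96.1, 49.6, 36.2, 46.3 and 27.8 FPKM in TG1 to TG5, of which *Tppp3* made up 85.0%, and without it the sums were 10.4 FPKM in TG1, 5.98 in TG2, 7.005 in TG3, 7.93 in TG4 and 7.06 in TG5. Skeletal muscle markers summed to 39.03, 30.1, 16.9, 7.36 and 5.35 FPKM in TG1 to TG5, and *Tnnt3*, a troponin of fast muscle, had 16.1 FPKM in TG1, 6.21 in TG2, 2.69 in TG3, 3.45 in TG4 and 1.299 in TG5.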
